A study of Mus musculus with 4 samples.

Results

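The 36 genes described here encode chaperones of the cytosol and mitochondria, their co-chaperones and the heat shock transcription factors. They were picked by gene name from the 53715 genes of the deposited expression table, and all 36 names were found there once. The rule uses no measured value, but the names and roles were chosen with earlier results of these data known. Levels were measured in 4 libraries of C57BL/6 mouse blastocysts grown in KSOM, an embryo culture medium, from zygotes collected from the oviduct. The α-KG library came from embryos given α-ketoglutarate at 0.15 mM from the pronuclear stage, and its own negative control library is called the α-KG control. The 2-HG library came from embryos given 2-hydroxyglutarate at 0.3 mM from the same stage, and its own negative control is called the 2-HG control. α-Ketoglutarate is an intermediate of the TCA cycle and the co-substrate of many dioxygenases, and 2-hydroxyglutarate is its reduced form, with the keto group turned into a hydroxyl. Each group holds 1 library, so no difference below has a replicate error or a test, and the labels give neither the number of embryos pooled nor the enantiomer of 2-HG.

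Chaperones hold unfolded proteins in solution and help them fold. HSP70 binds short exposed stretches of a protein in a cycle driven by ATP, J proteins bring the substrate, and BAG and HSP110 proteins release the nucleotide. HSP90 acts later on a narrower set of clients with co-chaperones such as HOP and AHA1. The ring-shaped chaperonin TRiC, also called CCT, folds actin and tubulin that prefoldin hands over, and HSP60 with its lid HSP10 does comparable work in mitochondria. Under heat or proteotoxic stress HSF1 binds heat shock elements, repeats of GAA and TTC, and switches on the inducible chaperones, while the constitutive ones are made all the time. In the mouse embryo HSP70 genes are among the early genes of the zygote.

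The upstream sequences of 6 members show the letters of which heat shock elements are built, in inducible and in other members. They were chosen to show the HSP70 pair that was almost not detected here (Hspa1a and Hspa1b). Also shown are Hspb1, with the widest gap between libraries at high level, and members whose window holds the long form (Hsph1, Hspe1 and Dnajb6). Sequences are those of RefSeq on GRCm38.p6, printed 5′ to 3′ on the gene's strand and ending 1 base before the start site, and capitals mark every match to GAANNTTC or TTCNNGAA. The Hspe1 stretch holds only the 215 bases between a start site of Hspd1, which is read the other way, and that of Hspe1.
Hspa1a (chr17:34972157-34972406, minus strand): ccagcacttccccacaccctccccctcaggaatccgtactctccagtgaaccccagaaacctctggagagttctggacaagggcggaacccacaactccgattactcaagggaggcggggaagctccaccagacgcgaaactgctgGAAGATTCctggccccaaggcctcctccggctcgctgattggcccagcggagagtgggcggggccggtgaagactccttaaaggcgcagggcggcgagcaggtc
Hspa1b (chr17:34959239-34959488, minus strand): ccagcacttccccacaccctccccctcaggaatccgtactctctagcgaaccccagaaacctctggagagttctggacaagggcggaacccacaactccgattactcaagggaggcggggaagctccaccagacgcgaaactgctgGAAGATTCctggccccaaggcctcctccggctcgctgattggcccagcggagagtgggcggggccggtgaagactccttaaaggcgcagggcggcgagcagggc
Hspb1 (chr5:135887669-135887918, plus strand): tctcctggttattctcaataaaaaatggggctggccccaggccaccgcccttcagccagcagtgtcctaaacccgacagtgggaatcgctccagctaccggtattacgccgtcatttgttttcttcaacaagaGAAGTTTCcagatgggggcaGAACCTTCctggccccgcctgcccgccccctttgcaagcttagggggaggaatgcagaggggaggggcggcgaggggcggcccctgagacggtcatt
Hsph1 (chr5:149636337-149636586, minus strand): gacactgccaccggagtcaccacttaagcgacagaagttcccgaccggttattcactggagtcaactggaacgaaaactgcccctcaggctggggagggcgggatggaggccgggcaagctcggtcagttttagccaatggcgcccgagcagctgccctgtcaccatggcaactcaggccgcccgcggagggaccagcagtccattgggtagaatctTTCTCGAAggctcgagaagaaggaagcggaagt
Hspe1 (chr1:55087933-55088147, plus strand): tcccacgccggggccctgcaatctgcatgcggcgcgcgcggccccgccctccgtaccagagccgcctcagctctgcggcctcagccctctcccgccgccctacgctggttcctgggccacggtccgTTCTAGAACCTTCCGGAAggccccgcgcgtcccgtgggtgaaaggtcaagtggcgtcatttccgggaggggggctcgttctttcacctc
Dnajb6 (chr5:29735648-29735897, plus strand): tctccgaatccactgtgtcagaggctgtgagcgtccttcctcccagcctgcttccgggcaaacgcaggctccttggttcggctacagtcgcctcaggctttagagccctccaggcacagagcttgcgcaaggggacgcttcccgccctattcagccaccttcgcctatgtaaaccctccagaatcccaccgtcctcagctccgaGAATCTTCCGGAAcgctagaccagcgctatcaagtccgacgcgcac

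The Hspa1a and Hspa1b stretches were equal in place at 247 of 250 bases, and each held 1 match at the same distance from its start site, 104 to 97 bases before it. In the stretch between Hspd1 and Hspe1, 3 overlapping matches formed an unbroken run from 89 to 72 bases before the Hspe1 start. Over windows from 250 bases before to 50 after the start, GAANNTTC or TTCNNGAA, each its own reverse complement, was found for 12 of the 28 members listed in RefSeq's promoter table. The share was 42.9% of these members, against 17.0% of all 27025 genes in that table. By role, the match was present for 5 of 6 heat-inducible members, 2 of 3 mitochondrial members, 2 of 4 in the J protein and BAG1 group and 3 of 7 chaperonin subunits. It was found for none of the 3 constitutive HSP70 and HSP110 members listed (Hspa2, Hspa4 and Hspa14). Nor was it found for the 2 HSP90 partners listed (Ahsa1 and Stip1), the 2 prefoldin members or the 1 heat shock factor. The 8 members without a window were Hspa8, Hsp90ab1, Hsp90aa1, Hspa9, St13, Cct4, Pfdn1 and Hsf1. They were not scanned, so neither HSP90 gene nor the main constitutive HSP70 gene is covered by these counts. The Hspd1 and Hspe1 windows cover nearly the same bases, so the matches of these mitochondrial members are the same ones counted for both. The window of the inducible Dnajb1 held no match. The long form, in which a GAANNTTC and a TTCNNGAA match share the GAA or TTC between them, was found for 4 members (14.3%), Hsph1, Dnajb6 and the overlapping Hspd1 and Hspe1, against 0.662% of all genes. In Hsph1 the long form lies after the start site and is not printed. A match is a run of letters and does not show that a factor binds there.

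The identity of the tissue and the comparability of the libraries were checked first. Values are TPM, a unit scaled by transcript length with the same total in each library, and between 9062 and 9417 genes stood at 5 TPM or more in each library. The 6 trophectoderm markers all reached 5 TPM in every library, summing to between 5978 and 7164 TPM. Most of this sum was Krt18 and Krt8, while Cdx2 stood between 13.5 and 17.3 TPM. The 4 epiblast markers summed to between 95.3 and 135 TPM, and among them Sox2 was at 9.18 TPM with α-KG and 8.91 TPM in its control, and at 1.92 TPM with 2-HG and 2.38 TPM in its control. The 4 primitive endoderm markers summed to between 168 and 218 TPM, most of it Gata6, while Gata4 and Sox17 did not pass 1.67 TPM. Of 8 cumulus and granulosa markers, 5 were at 0 in all 4 libraries, and the list summed to between 1.08 and 2.48 TPM. Of the 5 oviduct markers, Epcam, which blastocysts also express, stood at 882 TPM or more, and no other passed 1.70 TPM. Of 6 blood markers, Cd68 was at 30.0 TPM with α-KG and 10.3 TPM in its control, and at 18.5 TPM with 2-HG and 19.3 TPM in its control, and no other passed 2.39 TPM. The part of these cell types in the differences below was not tested. In whole embryos, fewer cells of a type and less RNA per cell cannot be told apart.

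Together the 36 genes took about 2 in every 100 transcripts, and their sum had the same order over the libraries as Hspa8, highest with α-KG and lowest with 2-HG. Their summed level was 21684 TPM with α-KG and 20119 TPM in its control, and 18648 TPM with 2-HG and 20548 TPM in its control. As shares of all TPM these sums were 2.17% with α-KG and 2.01% in its control, and 1.87% with 2-HG and 2.05% in its control. Hsp90aa1, Hspa8 and Hsp90ab1 alone made up between 49.9% and 53.9% of the sum. They ranked 15th, 25th and 30th in mean TPM among all genes. At the other end, Hsf1, Hspa2, Hspa1a and Hspa1b stayed under 5 TPM in every library, and 32 members passed that minimum. Of the 36 genes, 17 had their highest value with α-KG and 13 in the 2-HG control, while 15 had their lowest with 2-HG and 12 in the α-KG control, with Hspa1a listed at 0 in both and counted in neither. Of all 10420 genes with 5 TPM or more in any library, 26.3% were highest with α-KG and 32.3% in the 2-HG control, and 33.5% were lowest with 2-HG and 27.9% in the α-KG control. These shares leave out genes under 5 TPM, but the member counts include Hsf1, Hspa2, Hspa1a and Hspa1b. All of these low members were highest with α-KG, and all but Hspa1a were lowest with 2-HG. The member counts and the shares are thus not on the same footing.

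**Figure D1:**
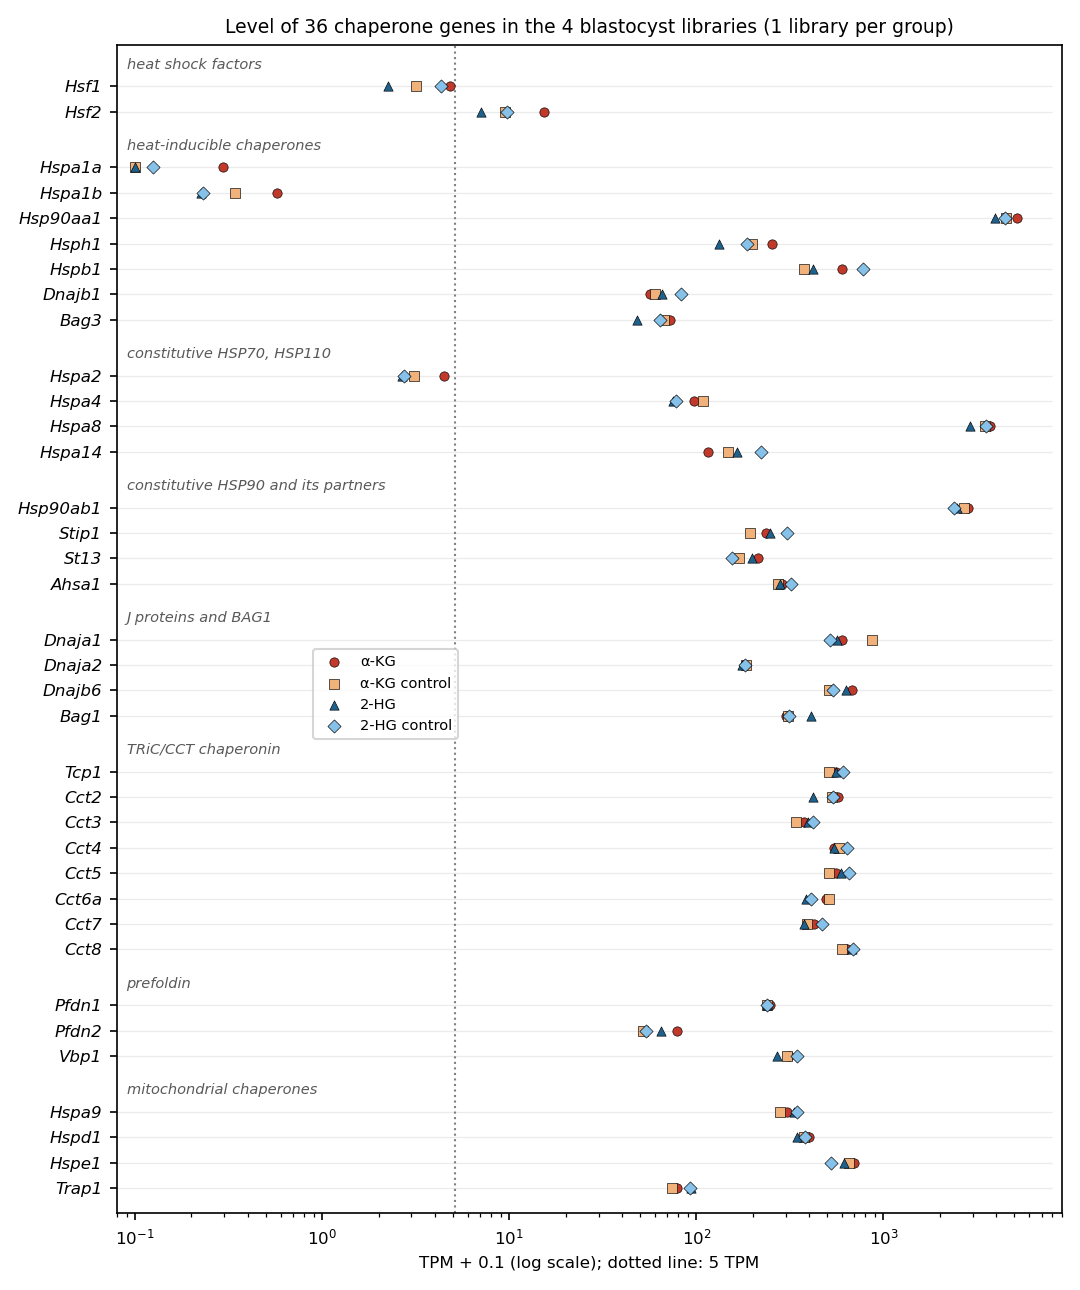
TPM plus 0.1 on a log axis for each of the 36 chaperone genes, grouped by role, with 1 point per library (circles α-KG, squares α-KG control, triangles 2-HG, diamonds 2-HG control) and a dotted line at 5 TPM. The points of most genes lie close together across libraries, while levels between genes run from under 1 TPM for Hspa1a and Hspa1b to 3925 TPM or more for Hsp90aa1.

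Both heat shock factors were expressed at low level and stood highest with α-KG and lowest with 2-HG. Hsf2, which acts in development as well as in stress, was at 15.3 TPM with α-KG and 9.40 TPM in its control, and at 6.98 TPM with 2-HG and 9.58 TPM in its control. The controls were thus close to each other for Hsf2, with the treated libraries on either side of them. On the scale of log2(TPM + 1), used for all differences below, Hsf2 differed by 0.65 with α-KG and by -0.41 with 2-HG. Hsf1, the main stress-responsive factor, was at 4.74 TPM with α-KG and 3.06 TPM in its control, and at 2.16 TPM with 2-HG and 4.22 TPM in its control. It was under 5 TPM throughout and was left out of the counts.

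The inducible HSP70 genes, the classical products of the heat shock response, were almost not detected. Hspa1a was at 0.20 TPM with α-KG and listed at 0 in its control, and listed at 0 with 2-HG and at 0.02 TPM in its control. Hspa1b was at 0.47 TPM with α-KG and 0.24 TPM in its control, and at 0.12 TPM with 2-HG and 0.13 TPM in its control. Their coding sequences are near-identical, so reads of one cannot be told with certainty from reads of the other. Neither passed 0.47 TPM. The sources used here do not say how reads matching both genes were counted, so these low values do not settle their true level. The constitutive Hspa8, in contrast, stood at 2912 TPM or more in every library.

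The other heat-inducible members were well expressed. Hsp90aa1, the inducible HSP90 isoform, was at 5147 TPM with α-KG and 4506 TPM in its control, and at 3925 TPM with 2-HG and 4459 TPM in its control. Hsph1, an HSP110 that exchanges the nucleotide of HSP70, was at 254 TPM with α-KG and 198 TPM in its control, and at 132 TPM with 2-HG and 187 TPM in its control. In both genes the controls lay within a narrow range, the α-KG library above them and the 2-HG library below them. The differences were 0.19 with α-KG and -0.18 with 2-HG for Hsp90aa1, and 0.36 and -0.51 for Hsph1. Bag3, a co-chaperone of HSP70 that feeds clients into autophagy, had the same order at 72.3 TPM with α-KG and 66.7 TPM in its control, and at 48.1 TPM with 2-HG and 63.9 TPM in its control. Dnajb1, the main inducible J protein, was at 56.2 TPM with α-KG and 59.7 TPM in its control, and at 65.3 TPM with 2-HG and 83.1 TPM in its control. It did not share that order and was highest in the 2-HG control.

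Hspb1, which encodes the small heat shock protein HSP27, varied most among the members above 50 TPM. It was at 599 TPM with α-KG and 374 TPM in its control, and at 419 TPM with 2-HG and 774 TPM in its control. The α-KG library was above its control and the 2-HG library below its own, by 0.68 and -0.89, but the widest gap lay between the controls. At 1.05 this difference made Hspb1 the only member that passed a 2-fold rule, a difference of at least 1 in either direction applied to genes that reached 5 TPM in either library. The call ended with median-of-ratios scaling, at 0.96. A near-identical gene, RP23-54F9.1, was at 5.32 TPM with α-KG and 2.20 TPM in its control, and at 5.96 TPM with 2-HG and 8.12 TPM in its control.

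As a group the 5 heat-inducible genes above 5 TPM had a median difference of 0.19 with α-KG, with 4 above 0, and of -0.40 with 2-HG, with 5 of 5 below 0. The roles that form this group were set with earlier results of these data known. Over all genes compared, the medians were 0.05 with α-KG and -0.12 with 2-HG. Of these genes, 55.8% were above 0 with α-KG and 62.4% below 0 with 2-HG. Most cell type markers compared lay on the same sides. Of the trophectoderm markers, 6 of 6 were above their control with α-KG, at a median of 0.16, and 4 of 6 below with 2-HG, at a median of -0.34, among them Eomes at 0.60 with α-KG and -0.69 with 2-HG. The other 2 trophectoderm markers, Krt8 and Krt18, were above their control with 2-HG, at 0.22 and 0.16. Of the epiblast markers, 2 of 4 were below their control with α-KG, at a list median of -0.26. Over all marker lists, 11 of the 14 markers compared were above with α-KG and 11 of 13 below with 2-HG, there at a median of -0.33. The part of cell type in the inducible genes' differences was not tested. Scaling by median of ratios moved the median of all genes in the 2-HG pair from -0.12 to -0.01, and the 5 inducible genes stayed below 0 under it, at a median of -0.29. Against the control of the other pair, the split was 3 above and 2 below with α-KG and 2 above and 3 below with 2-HG. The medians in that setting were 0.18 with α-KG and -0.20 with 2-HG.

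**Figure D2:**
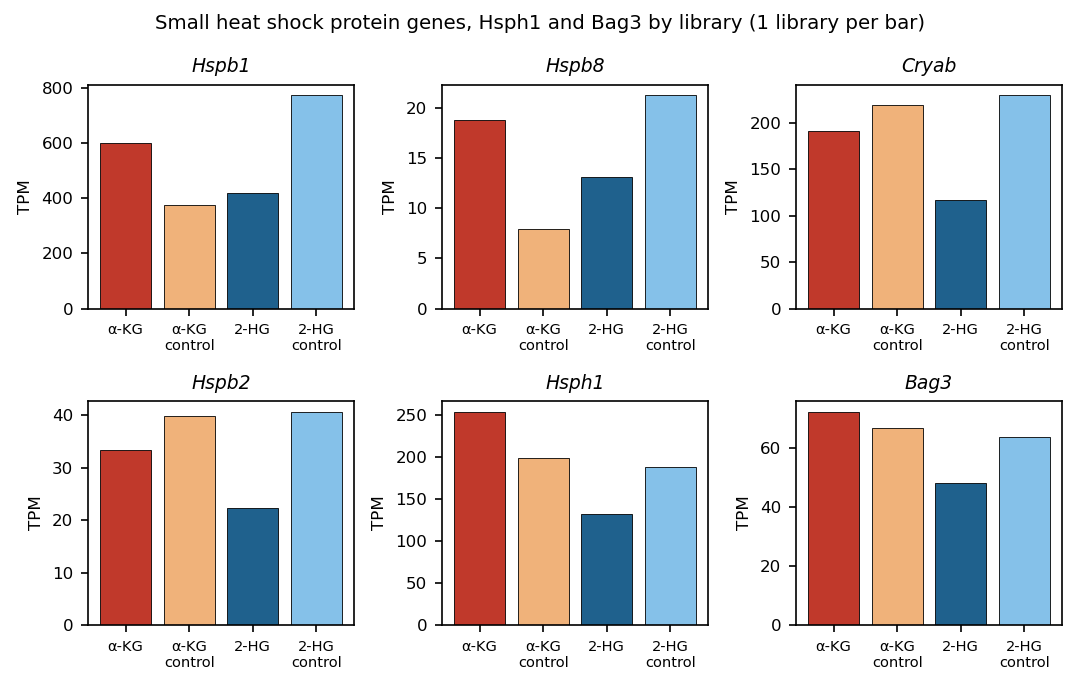
TPM of the small heat shock protein genes Hspb1, Hspb8, Cryab and Hspb2, and of Hsph1 and Bag3, with 1 bar per library from α-KG to the 2-HG control. Hspb1 and Hspb8 are lowest in the α-KG control, at 374 and 7.97 TPM, while Cryab, Hspb2, Hsph1 and Bag3 are lowest with 2-HG.

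Of the constitutive HSP70 and HSP110 genes, Hspa14 had the widest range over the libraries and Hspa8 the narrowest. Hspa8, which encodes the cognate HSC70, was at 3718 TPM with α-KG and 3491 TPM in its control, and at 2912 TPM with 2-HG and 3538 TPM in its control. The α-KG library and both controls lay together and the 2-HG library lay lower, at a difference of -0.28. Near-identical copies of Hspa8 in the table summed to 224 TPM with α-KG and 191 TPM in its control, and to 161 TPM with 2-HG and 288 TPM in its control. Hspa4, an HSP110-type exchange factor, was at 96.6 TPM with α-KG and 108 TPM in its control, and at 74.4 TPM with 2-HG and 77.3 TPM in its control, so it differed more between pairs than within them. Hspa14, a ribosome-associated HSP70, was at 115 TPM with α-KG and 147 TPM in its control, and at 165 TPM with 2-HG and 220 TPM in its control, below its control in both pairs. Hspa2, best known for its role in spermatogenesis, stayed between 2.56 and 4.35 TPM. Hspa8 exceeded the sum of the other cytosolic HSP70 and HSP110 members by a factor of 7.91 with α-KG, 7.66 in its control, 7.79 with 2-HG and 7.26 in its control.

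Hsp90ab1, the constitutive HSP90 isoform, varied little, at 2833 TPM with α-KG and 2686 TPM in its control, and at 2476 TPM with 2-HG and 2389 TPM in its control. The inducible isoform was the more abundant in all 4 libraries, with a ratio of Hsp90aa1 to Hsp90ab1 of 1.82 with α-KG and 1.68 in its control, and of 1.59 with 2-HG and 1.87 in its control. This ratio takes no account of near-identical genes of Hsp90aa1, which summed to between 206 and 276 TPM. Stip1, which encodes HOP and links HSP70 to HSP90, was at 237 TPM with α-KG and 193 TPM in its control, and at 247 TPM with 2-HG and 306 TPM in its control. Its widest gap, 0.66, was between the controls. St13, which encodes the HSP70-binding protein HIP, was above its control in both pairs, at 214 TPM with α-KG and 169 TPM in its control and at 197 TPM with 2-HG and 156 TPM in its control. Ahsa1, which encodes the HSP90 ATPase activator AHA1, stood between 272 and 321 TPM.

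The J proteins and Bag1 included the members that leaned the other way. Dnaja1, a J protein that serves cytosolic HSP70, was at 597 TPM with α-KG and 871 TPM in its control, and at 567 TPM with 2-HG and 517 TPM in its control. The α-KG control stood apart from the other 3 libraries, so that the difference was -0.54 with α-KG and -0.75 between the controls. Exons of Dnaja1 overlap those of Smu1 on the opposite strand, which was at 137 TPM with α-KG and 172 TPM in its control, and at 152 TPM with 2-HG and 192 TPM in its control. Dnajb6, a suppressor of protein aggregation, was at 678 TPM with α-KG and 511 TPM in its control, and at 631 TPM with 2-HG and 540 TPM in its control, above its control in both pairs. Bag1, a nucleotide exchange factor of HSP70, was at 409 TPM with 2-HG, against 313 TPM in its control, and at 301 TPM with α-KG and 310 TPM in its control. Dnaja2 was nearly level, between 174 and 184 TPM.

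The 8 subunits of the TRiC chaperonin, which occupy fixed places in each ring, were expressed at similar levels and varied little between libraries. Their mean was 520 ± 84.7 TPM with α-KG and 497 ± 89.1 TPM in its control, and 495 ± 114 TPM with 2-HG and 553 ± 111 TPM in its control, where the SD is over the 8 subunits of 1 library and not over replicates. The highest subunit exceeded the lowest by a factor of 1.70 with α-KG and 1.77 in its control, and of 1.79 with 2-HG and 1.68 in its control. Cct8 was among the highest, at 642 TPM with α-KG and 601 TPM in its control, and at 678 TPM with 2-HG and 690 TPM in its control. Cct3 was among the lowest, at 378 TPM with α-KG and 340 TPM in its control, and at 396 TPM with 2-HG and 418 TPM in its control. With α-KG the difference of widest size among the subunits was 0.15, for Cct3. With 2-HG all 8 were below their control, from -0.03 for Cct8 to -0.35 for Cct2, at 420 TPM with 2-HG and 536 TPM in its control. Their median of -0.13 was near that of all genes compared, -0.12, of which 62.4% were below 0. The direction of the subunits did not hold with median-of-ratios scaling, where 3 subunits were above 0 and 5 below at a median of -0.02. The 2-HG control held the highest value of 6 of the 8 subunits. Exons of Tcp1, Cct6a, Cct7 and Cct8 overlap other expressed genes on the opposite strand.

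Of the prefoldin genes, which encode subunits of the jellyfish-shaped complex that delivers nascent actin and tubulin to TRiC, Pfdn1 was the steadiest member of all, between 238 and 247 TPM. Pfdn2 was above its control in both pairs, at 78.8 TPM with α-KG and 51.6 TPM in its control and at 64.8 TPM with 2-HG and 53.4 TPM in its control. Its difference of 0.60 with α-KG was among the largest of the members, and the controls were near each other. Vbp1, the prefoldin subunit named for binding the VHL protein, was at 314 TPM with α-KG and 305 TPM in its control, and at 271 TPM with 2-HG and 345 TPM in its control.

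The mitochondrial chaperones were level within the α-KG pair, where all 4 differed by between 0.08 and 0.13. Hspa9, the mitochondrial HSP70 mortalin, was at 307 TPM with α-KG and 281 TPM in its control, and at 333 TPM with 2-HG and 345 TPM in its control. Hspd1, which encodes HSP60, was at 397 TPM with α-KG and 377 TPM in its control, and at 346 TPM with 2-HG and 379 TPM in its control. Hspe1, which encodes the HSP10 lid, was at 692 TPM with α-KG and 656 TPM in its control, and at 612 TPM with 2-HG and 526 TPM in its control. The ratio of Hspe1 to Hspd1 was 1.74 with α-KG and 1.74 in its control, and 1.77 with 2-HG and 1.39 in its control, so the 2-HG control stood apart. Annotated exons of Hspe1 and Hspd1 overlap on opposite strands. Trap1, the mitochondrial HSP90, was at 78.7 TPM with α-KG and 74.3 TPM in its control, and at 93.6 TPM with 2-HG and 92.3 TPM in its control, so that it differed between pairs by more than within them.

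**Figure D3:**
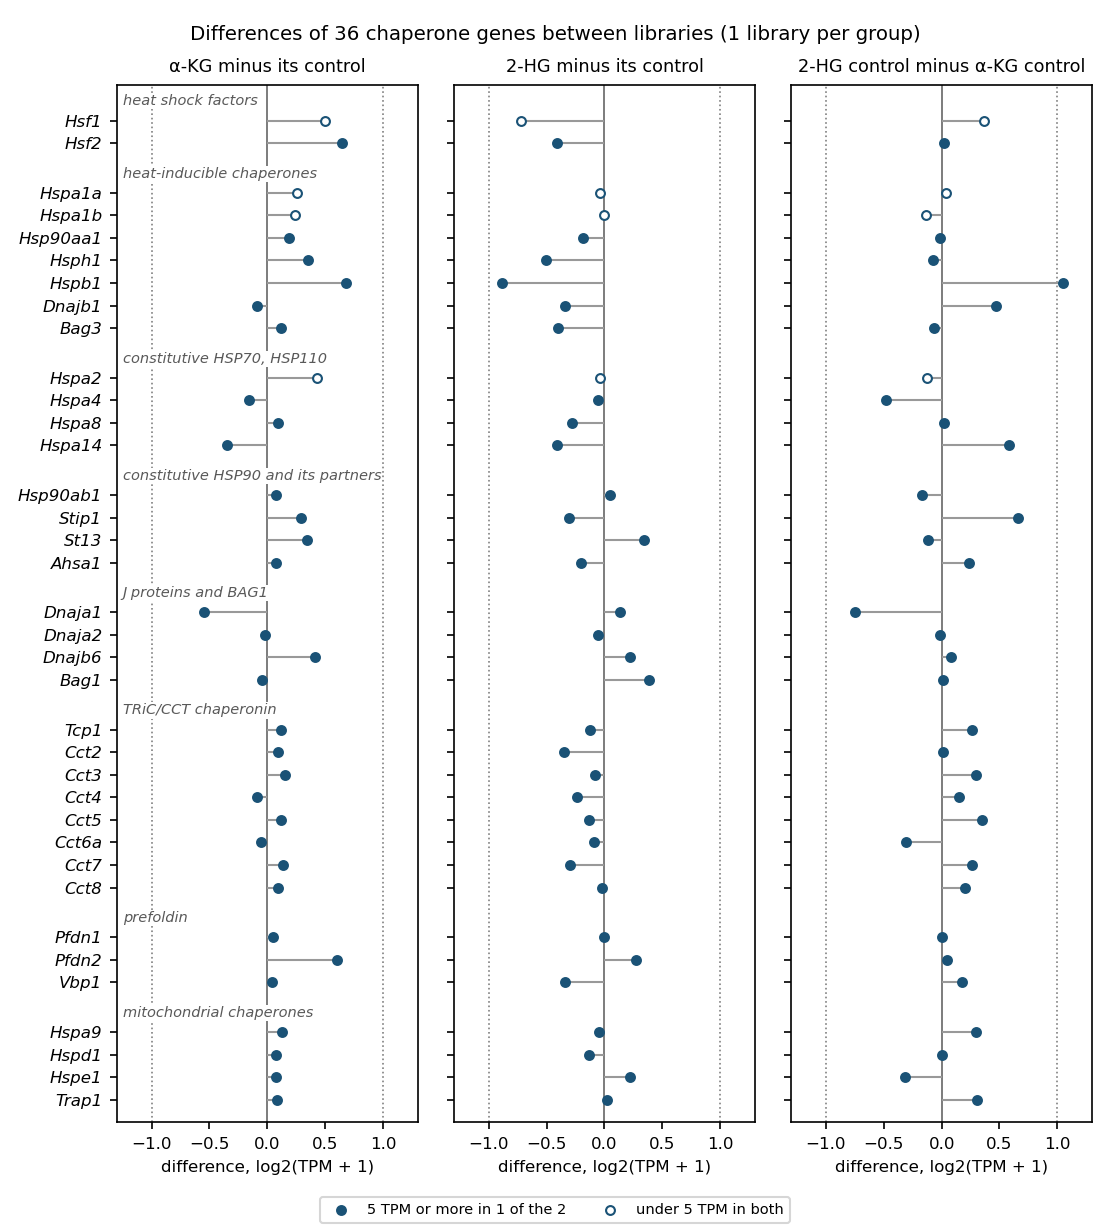
Difference in log2(TPM + 1) of each of the 36 genes for α-KG minus its control, 2-HG minus its control and the 2-HG control minus the α-KG control, with filled points for genes at 5 TPM or more in 1 library of the pair, open points for the rest and dotted lines at the 2-fold rule. No filled point passes a dotted line in the treated comparisons, and Hspb1 at 1.05 is the only one that does between the controls.

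In neither treated comparison did any chaperone gene pass the 2-fold rule. With α-KG, 0 of 32 members were called in either direction, where 4.21% of 9878 genes were called higher and 3.1% lower, together 7.31%. With 2-HG, 0 of 32 members were called, where 2.36% of 9834 genes were called higher and 5.65% lower, together 8.01%. Between the controls 1 of 32 members was called, where 5.99% of 9927 genes were called higher in the 2-HG library's control and 2.87% lower, together 8.86%. Most members are abundant, and among 3025 genes with a mean of 50 TPM or more, 1.55% were called with α-KG, 2.02% with 2-HG and 2.84% between the controls. The counts of 0, 0 and 1 chaperone genes are near these shares, so they are no result about chaperones. At a 1.5-fold rule, 3 members were higher with α-KG and 0 lower, against 11.0% and 8.22% of all genes. With 2-HG, 0 members were higher and 1 lower by that rule, against 6.63% and 16.2% of all genes. Between the controls, 2 members were higher and 1 lower by it, against 16.3% and 8.2% of all genes.

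The sizes of the differences were also near those of other abundant genes. The median absolute difference over the 31 members with a mean of 50 TPM or more was 0.11 with α-KG, 0.22 with 2-HG and 0.20 between the controls, against 0.17, 0.20 and 0.25 over all genes at that level. The highest of the 4 values exceeded the lowest by a median factor of 1.31 for these members and 1.36 for all such genes, and the factor was under 1.5 for 24 of 31 members (77.4%) and for 69.6% of the genes.

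**Figure D4:**
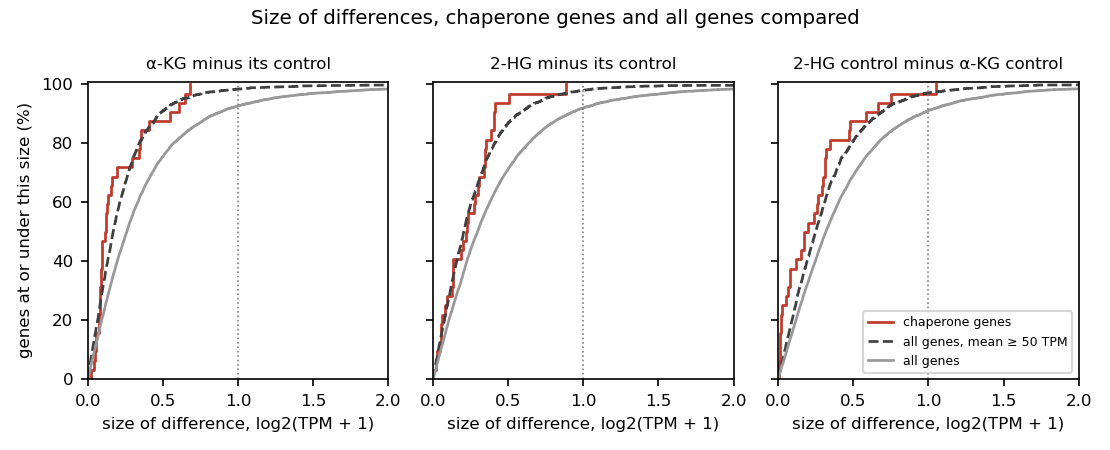
Share of genes, in percent, whose absolute difference in log2(TPM + 1) is at or under the value on the x axis, for the 32 chaperone genes compared, all genes with a mean of 50 TPM or more and all genes compared, in each of the 3 comparisons. The chaperone curve runs close to that of the abundant genes and reaches 100% at 0.68 with α-KG, 0.89 with 2-HG and 1.05 between the controls.

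The direction of the differences was counted as well, whatever their size. With α-KG, 24 of 32 members were above their control (75%), against 55.8% of all genes compared. With 2-HG, 24 of 32 were below their control (75%), against 62.4% of all genes. The medians were 0.09 for members and 0.05 for all genes with α-KG, and -0.13 and -0.12 with 2-HG. Of the 32 members, 18 were above their control with α-KG and below it with 2-HG (56.2%), against 35.1% of 9292 genes compared in both pairs, and 2 (Dnaja1 and Bag1) were on the opposite sides. Another 6 members were above their controls in both pairs and 6 below in both. The member counts with 2-HG and over both pairs depended on the scale, while that with α-KG hardly moved with it. All of these counts depended on the control. With median-of-ratios scaling 23 members were above their control with α-KG, against 50.3% of all genes, 17 were below with 2-HG, against 50.7% of all genes, and 13 were above with α-KG and below with 2-HG. Against the control of the other pair, 16 members were above and 16 below in each treated comparison, at medians of 0.02 with α-KG and -0.02 with 2-HG. Of all genes, 46.9% were above with α-KG and 46.6% with 2-HG in that setting. The doses differ, so the compounds themselves were not compared.

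Another 67 chaperone genes, in lists of HSP70 and HSP90 partners, small heat shock proteins, prefoldin and chaperonin partners and mitochondrial chaperones and proteases, were counted by the same rule. Of these, 56 were at 5 TPM or more in 1 library of each pair. With α-KG 2 were called higher and 0 lower, with 2-HG 0 were called higher and 1 lower, and between the controls 2 were called higher and 0 lower. The shares of all genes called either way, 7.31%, 8.01% and 8.86% in these comparisons, are larger than those of these counts among 56, so the called genes below are described and no more. Their median differences were 0.00 with α-KG, -0.04 with 2-HG and 0.06 between the controls.

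The called genes were low in 1 library. Hspb8, a small heat shock protein that works with BAG3, was at 18.8 TPM with α-KG and 7.97 TPM in its control, and at 13.2 TPM with 2-HG and 21.3 TPM in its control. Fkbp5, an HSP90 co-chaperone of steroid receptors, was at 7.44 TPM with α-KG and 3.20 TPM in its control, and at 7.63 TPM with 2-HG and 9.45 TPM in its control. Both were thus called from the same low value of the α-KG control, with differences of 1.14 and 1.01 with α-KG and of 1.31 each between the controls. Htra2, a mitochondrial serine protease, was at 6.57 TPM with 2-HG and 20.6 TPM in its control, a difference of -1.51, and at 19.5 TPM with α-KG and 18.1 TPM in its control. Aup1, which overlaps its exons on the opposite strand, was at 68.2 TPM with 2-HG and 85.3 TPM in its control.

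The list of small heat shock proteins among these genes had 4 members at 5 TPM or more, all 4 of them below their control with 2-HG, at a median of -0.75. They were Cryab, Hspb2, Hspb8 and Hspb11, the last of which encodes the ciliary transport protein IFT25. In the same comparison 62.4% of all genes were below 0, as were 11 of 13 cell type markers at a median of -0.33. The lowest markers included Pdgfra at -0.71, Eomes at -0.69 and Nanog at -0.50. Others differed little, such as Pou5f1 at -0.09 and Cd68 at -0.06, and the 2 above 0 were Krt8 at 0.22 and Krt18 at 0.16. The part of cell type in this was not tested. Cryab, which encodes αB-crystallin, was at 191 TPM with α-KG and 219 TPM in its control, and at 116 TPM with 2-HG and 229 TPM in its control. Its difference of -0.97 with 2-HG was just under the 2-fold rule. Hspb2, its head-to-head neighbour with overlapping exons, was at 33.3 TPM with α-KG and 39.8 TPM in its control, and at 22.3 TPM with 2-HG and 40.6 TPM in its control. Both genes were lowest with 2-HG, and with median-of-ratios scaling the 4 genes remained below 0 at a median of -0.64. Against the α-KG control, 3 of 4 were below 0 with 2-HG. The largest differences in the other directions were those of Dnajb12, a J protein of the ER membrane, at -0.82 with α-KG, and of Dnaja3, a mitochondrial J protein, at 0.53 with 2-HG and -0.66 between the controls.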

How the data were processed

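Libraries were made from pre-amplified cDNA of embryos lysed in Triton X-100, per the labels' protocols. The authors deposited gene-level TPM, and Trimmomatic, HISAT2, Picard, StringTie and DESeq2 are named with mm10 and GRCm38.p6, per the submitters' processing notes, without versions or roles. Strand use is not given in the sources used here, depth is unknown, and no counting interval is given. 10 columns of a second deposited worksheet were not used here. Over the whole table, one library's log2(TPM + 1) was subtracted from another's where a gene reached 5 TPM in either, and a difference of at least 1 in size counted as called. The pseudocount of 1 understates the change of low genes. Members, roles and gene lists were chosen with earlier results of these data known. All 36 members were named, and of other chaperone genes those called in any comparison and the largest difference per direction; Cryab, Hspb2, Hspa4l, Hspb6, the neighbouring and near-identical genes and the level of 50 TPM were chosen after values were seen. Names come from the deposited table, and exon overlaps from GENCODE M21 by gene ID without version. Promoter windows are RefSeq's on GRCm38.p6, matched by symbol for 28 of 36 members. 13 members have at least 300 bases at 95% identity or more in another gene's transcript (blastn), so their values are uncertain to that extent. Procedures were tested on simulated data. Computation used Python 3.11.15 and pandas 2.3.3.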

Additional observations from a re-analysis of the deposited data

Results flagged for a closer look

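Hspb1 lay on opposite sides of its control in the treated pairs by at least 0.5 on the log2(TPM + 1) scale, at 0.68 with α-KG and -0.89 with 2-HG. With 1 library per group this difference between pairs was not tested. The gap between the controls, at 1.05, was wider than either, and the 2-HG library at 419 TPM was near the α-KG control at 374 TPM.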

How the results depend on the processing

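Counts of called members were the same under pseudocounts of 0.1 and 5, minimum levels of 0, 1 and 10 TPM, and removal of mitochondrially encoded genes. In the treated comparisons they also stayed at 0 against the control of the other pair, against both controls and with median-of-ratios scaling. Between the controls the count of higher members was 0 with median-of-ratios scaling and 0 with a 3-fold rule, since Hspb1 lies near the limit. With a 1.5-fold rule, 3 of 32 members were higher with α-KG (Hspb1, Hsf2 and Pfdn2; 11.0% of all genes), 1 was lower with 2-HG (Hspb1; 16.2% of all genes), and between the controls 2 were higher (Hspb1 and Stip1; 16.3% of all genes) and 1 lower (Dnaja1; 8.2% of all genes). The count of members above their control with α-KG and below with 2-HG ran from 12 against the other pair's control to 22 with no minimum level. The share of all genes on these sides is given for the main setting only, at 35.1%. In the 250 bases before the start alone, a GAANNTTC or TTCNNGAA match was found for 35.7% of members and 14.5% of all genes. The median of members with 2-HG was -0.01 with median-of-ratios scaling and -0.02 against the α-KG control. No paired analysis was possible because each group holds 1 library, and no library could be left out for the same reason. Without replicates, biological and technical spread are not known for any gene.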

Other observations

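Some chaperone genes outside the comparisons, being under 5 TPM in both libraries, had values worth listing. Hspa4l, an HSP110-type gene, was at 3.82 TPM with α-KG and 0.95 TPM in its control, and at 0.42 TPM with 2-HG and 0.81 TPM in its control. Hspb6, a small heat shock protein, was at 1.09 TPM with α-KG and 4.99 TPM in its control, and at 1.37 TPM with 2-HG and 0.63 TPM in its control, and it overlaps Lin37 on the opposite strand. Hspa1l, Hspb3 and Hspb7 were listed at 0 in all 4 libraries. Of the near-identical genes of Hsp90aa1, RP23-285D3.2 was at 193 TPM with α-KG and 187 TPM in its control, and at 143 TPM with 2-HG and 150 TPM in its control, and AC124976.1 was at 71.6 TPM with α-KG and 72.2 TPM in its control, and at 55.2 TPM with 2-HG and 54.5 TPM in its control. The first had the order of Hsp90aa1 within both pairs, and the second was nearly level within each. RP23-32C18.4 also had that order, at 11.9 TPM with α-KG and 8.46 TPM in its control, and at 7.82 TPM with 2-HG and 8.66 TPM in its control. For Hspa8 one such gene, AC092404.2, was below its control in both pairs, at 54.5 TPM with α-KG and 73.6 TPM in its control, and at 64.4 TPM with 2-HG and 120 TPM in its control. The others at 5 TPM or more lay on the same sides as Hspa8 in both pairs. Gm26825 was at 105 TPM with α-KG and 57.1 TPM in its control, and at 55.1 TPM with 2-HG and 91.0 TPM in its control. RP23-299H4.3 was at 59.4 TPM with α-KG and 57.6 TPM in its control, and at 38.3 TPM with 2-HG and 71.8 TPM in its control.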
